A study of Mus musculus with 16 samples.

Results

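The basement membrane is the thin sheet of matrix that surrounds every cardiomyocyte and underlies the endothelium of each cardiac vessel, and integrins are the transmembrane receptors through which cells hold on to it. The genes described here are 46 rows of a mouse heart gene count matrix, out of 55487 rows, chosen by name and class, with earlier results of these data known: 23 encode basement membrane components (type IV, XV and XVIII collagens, laminins, nidogens, perlecan, agrin, and the laminin receptor dystroglycan) and 23 encode integrin chains. All 46 Ensembl IDs matched exactly 1 row. Of these, 45 passed the filter on low counts that all genes went through; the exception was Lama1, the alpha chain of early embryonic laminin, with 0 to 16 counts in a library.

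The libraries came from the heart apex of male mice 4 weeks after transverse aortic constriction (TAC), a ligature that puts the left ventricle under pressure overload, or after a sham operation that omitted the ligature. The 4 groups, of 4 animals and 1 library each, were wild-type controls after sham (Ctrl sham), Cardinal-knockout mice after sham (KO sham), controls after TAC (Ctrl TAC) and knockouts after TAC (KO TAC). Cardinal is a cardiac-enriched long noncoding RNA, annotated in the mouse as Gm12295, and the knockout is a germline deletion carried by all cells of the body, so that a difference is not tied to 1 cell type. Ages were not given in the labels, and replicate numbers here only name a library.

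Counts of reads per gene totalled 53169437 to 79404714 in a library, with 24458 to 26388 genes at 1 count or more. Gm12295 lay between 2.69 and 8.02 counts scaled to a library total of 1000000 (CPM) in the 8 control libraries, between 0.297 and 0.553 in KO sham, and at 0.371, 0.276 and 0.368 in 3 KO TAC libraries, but at 4.55 in the library labelled KO TAC 4. This level goes against its label, so the calls, fold changes and ratios that rest on KO TAC are compared further on with those of a fit without that library. The animal numbers in the labels begin with 25 in Ctrl TAC 2, 3 and 4 and in the library labelled KO TAC 4, and with 32, 33, 34 or 36 in the others; what the numbers stand for was not given. The summed level of 10 ventricular cardiomyocyte markers was 58748 to 67175 CPM in Ctrl sham and 46800 to 49703 in KO TAC, and endothelial, fibroblast and macrophage markers were all detected.

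Type IV collagen forms the network of the basement membrane, laminin forms a second one on the cell surface, and nidogen and perlecan tie them together. Collagen IV molecules are trimers of 6 possible chains whose genes lie in head-to-head pairs, each pair transcribed outward from a short shared region. Integrin heterodimers pair 1 alpha with 1 beta chain, and the alpha chain largely sets the ligand: alpha1, alpha2, alpha10 and alpha11 bind collagens, alpha3, alpha6 and alpha7 bind laminins, alpha5, alpha8 and alphaV bind proteins with the tripeptide RGD such as fibronectin, and alphaL, alphaM and alphaX are leukocyte chains. In muscle the main laminin receptors are dystroglycan and the alpha7 beta1 integrin.

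The 3 collagen IV gene pairs are the place where sequence and expression of these genes can be read side by side, and their start regions are shown here for that reason. In GRCm38, Col4a1 (chromosome 8, 11198423 to 11312826, minus strand) and Col4a2 (11312805 to 11449287, plus strand) start 21 bases apart, and their first exons share 22 bases. Col4a3 (chromosome 1, 82586921 to 82722059, plus strand) and Col4a4 (82448423 to 82586849, minus strand) start 72 bases apart. Col4a5 (chromosome X, 141475385 to 141689234, plus strand) and Col4a6 (141165403 to 141474076, minus strand) start 1309 bases apart. The windows below, from RefSeq on GRCm38.p6, hold 250 bases before and 50 after the start that RefSeq gives, written 5′ to 3′ on the strand of the gene. Capitals mark matches to CCAAT and to the GC box GGGCGG on either strand, that is also ATTGG and CCGCCC; these 2 motifs did not overlap each other. The windows were chr8:11312777-11313076 on the minus strand for Col4a1, chr8:11312555-11312854 on the plus strand for Col4a2, chr1:82586800-82587099 on the minus strand for Col4a4, chrX:141475169-141475468 on the plus strand for Col4a5 and chrX:141474027-141474326 on the minus strand for Col4a6. For Col4a5 the RefSeq start, 141475419, lies 34 bases downstream of the GENCODE start given above, and for the other 4 genes both starts are the same. The Col4a1 and Col4a2 windows share 78 bases, and the Col4a4 window holds the annotated start of Col4a3.
Col4a1: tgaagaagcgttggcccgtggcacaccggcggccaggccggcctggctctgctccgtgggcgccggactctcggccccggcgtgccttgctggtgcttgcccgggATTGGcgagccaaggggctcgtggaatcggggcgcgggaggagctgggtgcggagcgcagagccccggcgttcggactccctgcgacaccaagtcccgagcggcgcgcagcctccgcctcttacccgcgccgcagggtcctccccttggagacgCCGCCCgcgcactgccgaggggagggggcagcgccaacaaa
Col4a2: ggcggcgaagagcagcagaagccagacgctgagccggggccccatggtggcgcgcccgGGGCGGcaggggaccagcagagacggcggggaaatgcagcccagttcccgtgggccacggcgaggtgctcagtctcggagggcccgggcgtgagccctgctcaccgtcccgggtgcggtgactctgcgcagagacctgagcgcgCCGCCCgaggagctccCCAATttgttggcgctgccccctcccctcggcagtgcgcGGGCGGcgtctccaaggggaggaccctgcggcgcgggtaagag
Col4a4: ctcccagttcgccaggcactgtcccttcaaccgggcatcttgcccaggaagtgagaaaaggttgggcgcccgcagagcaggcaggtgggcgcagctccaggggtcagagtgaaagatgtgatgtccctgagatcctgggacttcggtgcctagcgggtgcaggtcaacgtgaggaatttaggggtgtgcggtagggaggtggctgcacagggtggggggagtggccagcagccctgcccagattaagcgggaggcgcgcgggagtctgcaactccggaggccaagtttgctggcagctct
Col4a5: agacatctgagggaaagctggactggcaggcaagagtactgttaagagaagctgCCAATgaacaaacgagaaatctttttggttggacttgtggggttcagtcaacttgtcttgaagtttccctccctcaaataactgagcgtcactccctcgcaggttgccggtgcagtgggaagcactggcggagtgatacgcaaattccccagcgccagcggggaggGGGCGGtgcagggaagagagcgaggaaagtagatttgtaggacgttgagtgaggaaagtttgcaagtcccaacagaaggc
Col4a6: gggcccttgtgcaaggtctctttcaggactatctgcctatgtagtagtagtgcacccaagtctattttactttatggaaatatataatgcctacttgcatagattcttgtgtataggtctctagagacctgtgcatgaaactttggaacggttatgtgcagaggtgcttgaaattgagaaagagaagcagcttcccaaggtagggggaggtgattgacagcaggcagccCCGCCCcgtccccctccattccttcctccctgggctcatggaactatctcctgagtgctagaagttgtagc
The GC content was 74.0% and 73.7% in the Col4a1 and Col4a2 windows, 63.3% in that of Col4a4, and 52.7% and 48.3% in those of Col4a5 and Col4a6, against a median of 52.7% over all 32851 windows of the table. The Col4a2 window held 3 GC boxes and 1 CCAAT, those of Col4a1 and Col4a5 held 1 of each, that of Col4a6 held 1 GC box, and the Col4a4 window held neither. The GC box of Col4a1 is the same site as 1 of those of Col4a2, read on the other strand in the stretch that both windows share. A CCAAT was present in 37.4% of all windows and a GC box in 35.7%. TATAAA, found in 13.6% of all windows, and CAGACA, the SMAD box, found in 21%, were in none of the 5. These matches describe letters only.

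TAC raised a large share of these genes in both genotypes, led by Col4a3 and Col15a1, whereas 2 laminin chains fell. A gene was called where edgeR's quasi-likelihood test, fitted to all 18275 genes that passed the filter, gave a Benjamini-Hochberg adjusted p under 0.05. In Ctrl TAC vs. Ctrl sham, 24 of the 45 members tested were called, 22 higher (48.9%) and 2 lower (4.44%), against 20.0% of all genes called, 10.4% higher and 9.60% lower. In KO TAC vs. KO sham, 27 members were called, 25 higher (55.6%) and 2 lower (4.44%), against 34.3% of all genes, 17.8% higher and 16.5% lower. The median log2 fold change of the members was 0.31 in controls and 0.44 in knockouts, where that of all genes was 0.00 and −0.00. Without the library labelled KO TAC 4 the counts were again 24 and 27. Sham and TAC libraries did not overlap for 24 members in controls and 28 in knockouts, against 20.5% and 34.6% of all genes; these were the called members and, in knockouts, Itga4. All 24 members called in controls were called in the same direction in knockouts, which is 100% of the first list and 88.9% of the second; Itga6, Itgb2 and Itgb4 were called in knockouts alone, and a call in 1 genotype and not in the other is not a difference between them.

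**Figure D1:**
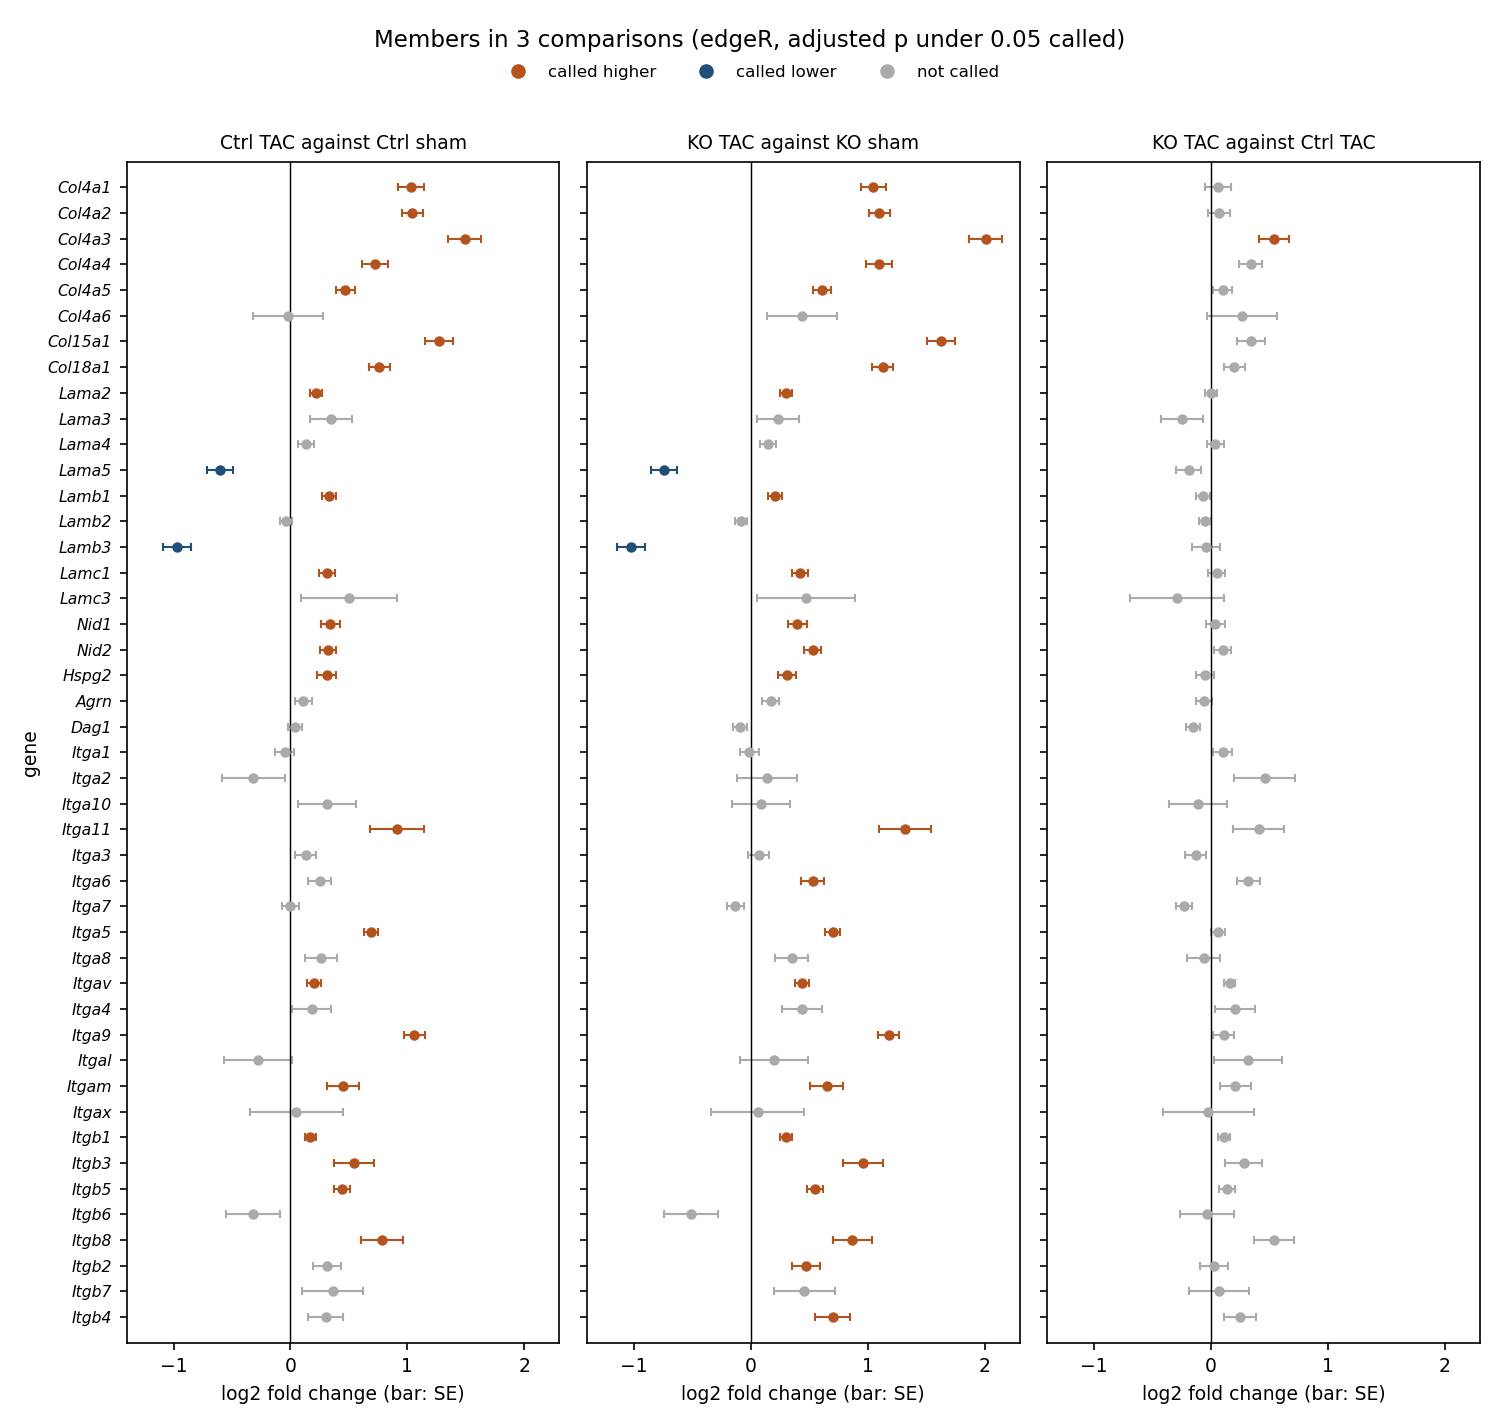
Log2 fold change (x axis, bars are SE) of the 45 members tested (y axis) in Ctrl TAC vs. Ctrl sham, KO TAC vs. KO sham and KO TAC vs. Ctrl TAC, colored where the adjusted p was under 0.05. Col4a3 and Col15a1 lie farthest to the right in the first 2 panels, and Lama5 and Lamb3 lie to the left of 0. In the third panel Col4a3 is the 1 gene colored.

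After TAC, 5 of the 6 type IV collagen genes were higher in both genotypes, and all called members of the class had TAC libraries above all sham libraries of their genotype. The alpha1 and alpha2 chains make up the collagen IV of nearly all basement membranes. The CPM of Col4a1 were 228, 295, 271 and 261 in Ctrl sham, 265, 269, 325 and 223 in KO sham, 639, 493, 472 and 544 in Ctrl TAC, and 580, 546, 571 and 546 in KO TAC. In CPM, Col4a2 stood at 189, 237, 213 and 205 in Ctrl sham, 212, 211, 246 and 182 in KO sham, 503, 413, 387 and 437 in Ctrl TAC, and 478, 423, 479 and 442 in KO TAC. Both genes about doubled and no TAC library reached the sham range: the log2 fold change of Col4a1 was 1.03 ± 0.11 (SE, edgeR adjusted p = 4.82e-06) in controls and 1.05 ± 0.11 (SE, edgeR adjusted p = 1.26e-06) in knockouts. For Col4a2 it was 1.04 ± 0.09 (SE, edgeR adjusted p = 6.43e-07) in controls and 1.10 ± 0.09 (SE, edgeR adjusted p = 1.11e-07) in knockouts.

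The alpha3 and alpha4 chains, which with alpha5 form the collagen IV network known from the kidney glomerulus, were far less abundant and changed more unequally. Col4a3 had levels of 3.42, 3.28, 4.04 and 3.87 CPM in Ctrl sham, 4.24, 3.43, 3.46 and 3.66 in KO sham, 11, 8.41, 8.42 and 13.3 in Ctrl TAC, and 16.8, 14.5, 15.3 and 13.1 in KO TAC. Levels of Col4a4 were 7.68, 8.58, 8.15 and 8.55 CPM in Ctrl sham, 8.01, 9.43, 7.16 and 7.56 in KO sham, 14.2, 12.5, 11.9 and 15.7 in Ctrl TAC, and 20.1, 16.8, 17.2 and 14.7 in KO TAC. Col4a3 nearly tripled in controls and quadrupled in knockouts, with a fold change of 2.82 and 4.03, while that of Col4a4, its neighbor 72 bases away, was 1.65 and 2.14. The log2 fold change of Col4a3 was 1.49 ± 0.14 (SE, edgeR adjusted p = 6.43e-07) in controls and 2.01 ± 0.14 (SE, edgeR adjusted p = 8.81e-09) in knockouts, and that of Col4a4 0.72 ± 0.11 (SE, edgeR adjusted p = 0.0001) and 1.10 ± 0.11 (SE, edgeR adjusted p = 3.86e-07). Col4a3 shares 563 exon bases (5.6%) with C430014B12Rik on the opposite strand, a gene at a mean of 0.185 to 0.361 CPM in the 4 groups.

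Col4a5 was measured at 34.8, 35.7, 35.8 and 32.7 CPM in Ctrl sham, 36.3, 32.1, 30.2 and 36.4 in KO sham, 42.2, 44.9, 48.7 and 56.4 in Ctrl TAC, and 53, 51.8, 51.3 and 49.6 in KO TAC. The rise of this alpha5 gene was smaller, with a log2 fold change of 0.47 ± 0.08 (SE, edgeR adjusted p = 0.000279) in controls and 0.61 ± 0.08 (SE, edgeR adjusted p = 8.55e-06) in knockouts, and again no TAC library lay within the sham range. Its partner Col4a6, encoding a chain found with alpha5 in smooth muscle basement membranes, stayed between 0.379 and 1.81 CPM in all libraries, with overlapping groups and a log2 fold change of −0.02 ± 0.30 (SE, edgeR adjusted p = 0.977) in controls and 0.44 ± 0.30 (SE, edgeR adjusted p = 0.286) in knockouts.

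Collagens XV and XVIII, the multiplexins, sit at the outer face of basement membranes, and their C-terminal fragments include endostatin. The CPM of Col15a1 were 42.7, 63.4, 59.3 and 53.2 in Ctrl sham, 48.7, 55.3, 61.8 and 49.9 in KO sham, 136, 110, 124 and 159 in Ctrl TAC, and 168, 170, 170 and 161 in KO TAC. In CPM, Col18a1 stood at 7.49, 7.36, 8.1 and 7.74 in Ctrl sham, 7.57, 6.23, 7.2 and 6.19 in KO sham, 12.1, 15.2, 13.2 and 11.6 in Ctrl TAC, and 14.9, 15.4, 15.8 and 13.6 in KO TAC. The log2 fold change of Col15a1 was 1.27 ± 0.12 (SE, edgeR adjusted p = 2.03e-06) in controls and 1.63 ± 0.12 (SE, edgeR adjusted p = 5.42e-08) in knockouts, and that of Col18a1 was 0.76 ± 0.09 (SE, edgeR adjusted p = 9.53e-06) and 1.13 ± 0.09 (SE, edgeR adjusted p = 3.99e-08). Both genes thus rose in both genotypes, and Ctrl TAC spread more widely for Col15a1 than KO TAC did.

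Markers of the vascular and interstitial cells of the heart did not all move alike beside these collagens. The summed level of 10 endothelial markers spanned 710 to 772 CPM in Ctrl sham, 710 to 847 in KO sham, 699 to 888 in Ctrl TAC and 734 to 831 in KO TAC, with 0 of 10 markers called in controls and 2 higher in knockouts. The 10 pericyte and smooth muscle markers summed to 1139 to 1212 CPM in Ctrl sham, 1070 to 1143 in KO sham, 970 to 1072 in Ctrl TAC and 929 to 1073 in KO TAC, with 3 called higher and 1 lower in controls and 4 higher and 1 lower in knockouts. For the 10 fibroblast markers the sum was 1281 to 1450 in Ctrl sham, 1335 to 1391 in KO sham, 1538 to 2090 in Ctrl TAC and 2255 to 2488 in KO TAC, with 5 markers called higher in controls and 8 in knockouts. None of these 30 markers was at 0 in any group. Against these counts, 10.4% of all genes were called higher and 9.60% lower in controls and 17.8% and 16.5% in knockouts. The fibroblast sum was thus higher after TAC without overlap, the pericyte and smooth muscle sum was lower without overlap in controls and overlapped in knockouts, and the ranges of the endothelial sum overlapped. In controls the pericyte and smooth muscle marker called lower was Abcc9, at 198 to 434 CPM over all libraries (log2 fold change −0.64 ± 0.07, SE). The median log2 fold change of these 10 markers was 0.06 in controls and 0.16 in knockouts, so their sum does not speak for the list. In these bulk libraries a change in the number of cells of a type and a change in RNA per cell cannot be told apart. The part of the fibroblast shift and of the lower pericyte and smooth muscle sum in the collagen values was not tested.

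**Figure D2:**
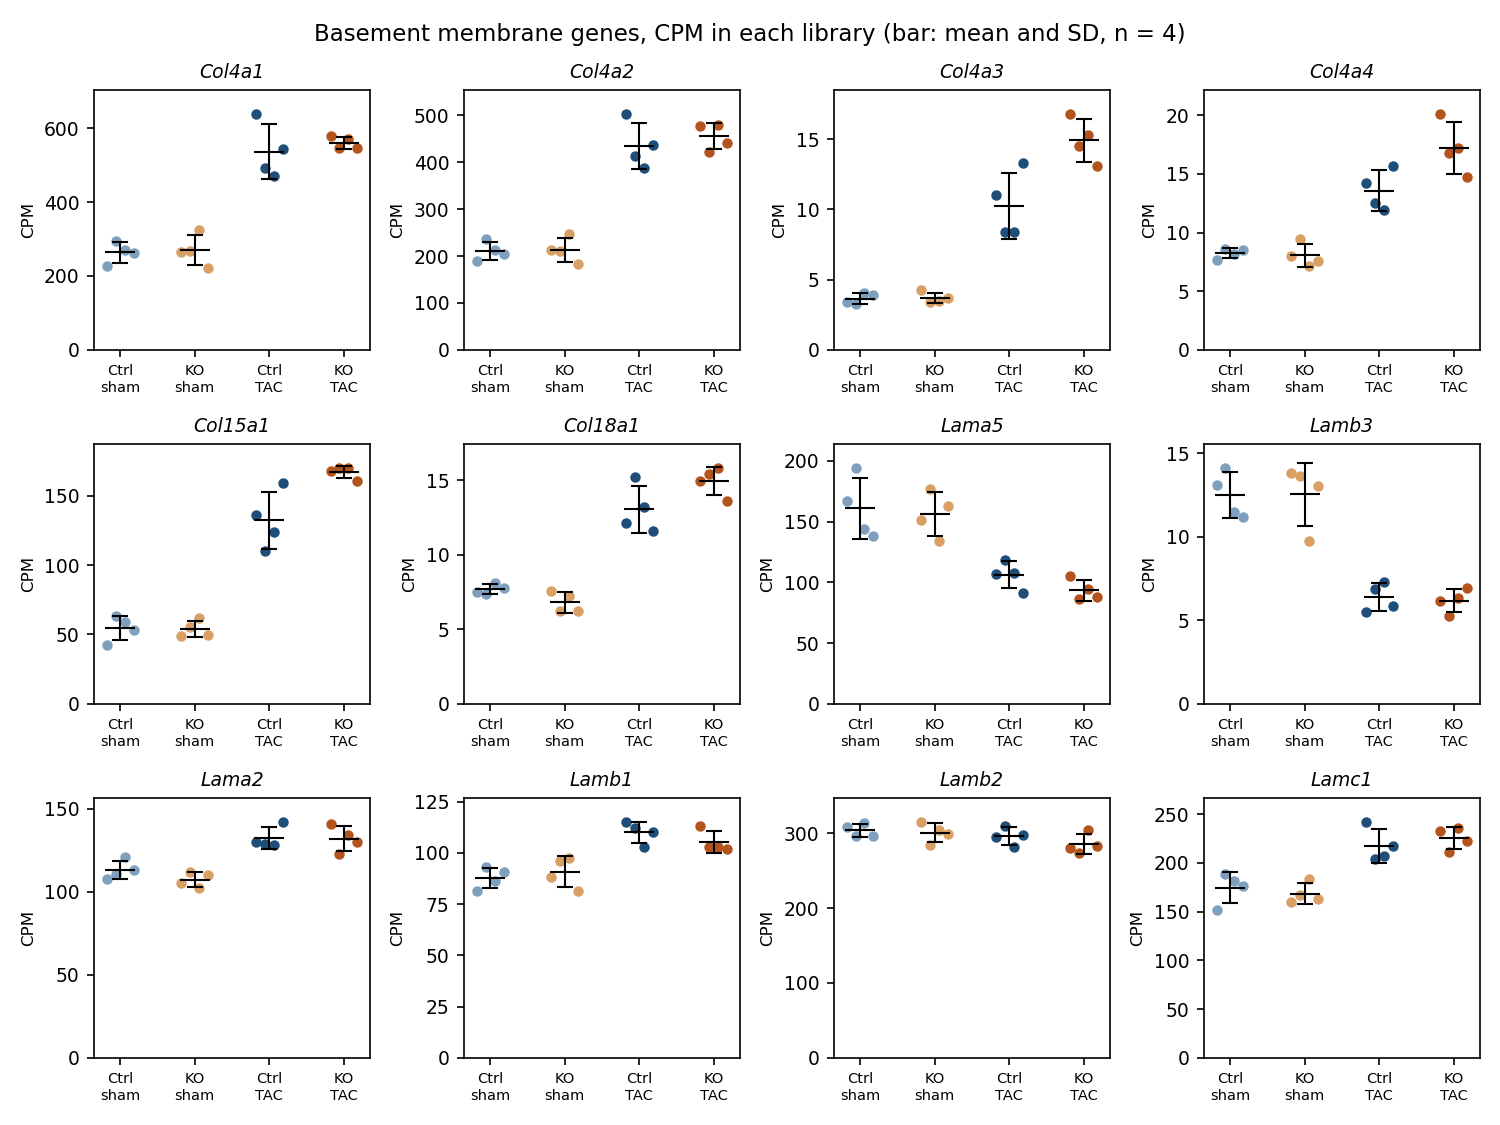
CPM (y axis, from 0) of 12 collagen and laminin genes in each of the 16 libraries, by group (x axis); points are libraries, bars the mean and SD of 4. Col4a1, Col4a2, Col4a3, Col4a4, Col15a1 and Col18a1 lie higher in both TAC groups, Lama5 and Lamb3 lie lower, and Lamb2 overlaps between groups.

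The laminin genes split by chain. Of 9 tested, 3 rose and 2 fell in each genotype, where 10.4% of all genes rose and 9.60% fell in controls and 17.8% and 16.5% in knockouts, and the median log2 fold change of the class was 0.22 in controls and 0.21 in knockouts. Lama2 encodes the alpha chain of laminin-211, the main laminin around muscle fibers. Lama2 had levels of 108, 111, 121 and 113 CPM in Ctrl sham, 105, 112, 102 and 110 in KO sham, 130, 129, 128 and 142 in Ctrl TAC, and 141, 123, 134 and 130 in KO TAC. Its rise was small but clear of the sham range, with a log2 fold change of 0.22 ± 0.05 (SE, edgeR adjusted p = 0.00597) in controls and 0.30 ± 0.05 (SE, edgeR adjusted p = 0.00023) in knockouts; with a term for animal numbers starting with 25 the control call was lost (edgeR adjusted p = 0.0513). Levels of Lama4 were 67, 84.3, 75.7 and 72.6 CPM in Ctrl sham, 73.2, 80.7, 77.6 and 72.9 in KO sham, 89.4, 76, 79.7 and 83.7 in Ctrl TAC, and 84.6, 80.6, 91.4 and 81.8 in KO TAC. Lama4, the alpha chain of the vascular laminin-411, overlapped between groups and was not called in either genotype, with a log2 fold change of 0.13 ± 0.07 (SE, edgeR adjusted p = 0.183) in controls and 0.15 ± 0.07 (SE, edgeR adjusted p = 0.0894) in knockouts.

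Lama5, the other vascular alpha chain, went the opposite way. Lama5 was measured at 167, 194, 144 and 138 CPM in Ctrl sham, 151, 177, 134 and 163 in KO sham, 107, 118, 108 and 91.1 in Ctrl TAC, and 105, 86, 94.8 and 87.5 in KO TAC. The log2 fold change was −0.60 ± 0.11 (SE, edgeR adjusted p = 0.000998) in controls and −0.74 ± 0.11 (SE, edgeR adjusted p = 6.37e-05) in knockouts, and no TAC library reached the sham range. Lamb3, a beta chain known from the epithelial laminin-332, fell further from a lower level. The CPM of Lamb3 were 13.1, 14.1, 11.5 and 11.2 in Ctrl sham, 13.8, 13.6, 9.74 and 13 in KO sham, 5.51, 6.86, 7.27 and 5.86 in Ctrl TAC, and 6.16, 5.25, 6.35 and 6.94 in KO TAC. Its log2 fold change was −0.97 ± 0.12 (SE, edgeR adjusted p = 1.91e-05) in controls and −1.02 ± 0.12 (SE, edgeR adjusted p = 4.02e-06) in knockouts, a fold change of 0.510 and 0.495. These were the 2 members called lower, and both kept the call in all 16 fits that left out 1 library.

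Lamb1 and Lamb2 encode the alternative beta chains of the laminins of muscle and vessels. In CPM, Lamb1 stood at 81.5, 92.9, 86.2 and 90.4 in Ctrl sham, 88.1, 95.9, 97.6 and 81.4 in KO sham, 115, 112, 103 and 110 in Ctrl TAC, and 113, 103, 103 and 102 in KO TAC. Lamb2 had levels of 309, 296, 314 and 297 CPM in Ctrl sham, 315, 285, 305 and 299 in KO sham, 295, 310, 282 and 298 in Ctrl TAC, and 281, 273, 305 and 283 in KO TAC. Lamb1 rose, with a log2 fold change of 0.33 ± 0.06 (SE, edgeR adjusted p = 0.000912) in controls and 0.21 ± 0.06 (SE, edgeR adjusted p = 0.0112) in knockouts, where the call was lost without KO sham 4 (adjusted p = 0.0531, edgeR). Lamb2 overlapped between groups, with a log2 fold change of −0.04 ± 0.05 (SE, edgeR adjusted p = 0.645) in controls and −0.08 ± 0.05 (SE, edgeR adjusted p = 0.234) in knockouts. Levels of Lamc1 were 152, 189, 182 and 176 CPM in Ctrl sham, 160, 167, 184 and 163 in KO sham, 242, 204, 207 and 217 in Ctrl TAC, and 233, 211, 236 and 223 in KO TAC. This gamma chain, shared by most laminins, had TAC libraries above the sham ones and a log2 fold change of 0.31 ± 0.07 (SE, edgeR adjusted p = 0.00354) in controls and 0.42 ± 0.07 (SE, edgeR adjusted p = 0.000129) in knockouts. Lama3, the alpha chain of laminin-332, was at 2.32 to 5.54 CPM with a log2 fold change of 0.35 ± 0.18 (SE, edgeR adjusted p = 0.203) in controls and 0.23 ± 0.18 (SE, edgeR adjusted p = 0.353) in knockouts, and Lamc3 was at 0.138 to 0.975 CPM and was not called.

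The mix of alpha chains per length shifted with these changes. Levels of different genes are compared as reads per kilobase of exon on the same library scale (RPKM), with each gene's merged exon length as divisor. That length joins the exons of all annotated transcripts of a gene, so an order between genes depends on it. Lama5 made up 51.1% ± 3.93 (SD, n = 4) of the summed RPKM of Lama2, Lama3, Lama4 and Lama5 in Ctrl sham and 51% ± 2.26 in KO sham, but 37.9% ± 3.44 in Ctrl TAC and 34.7% ± 1.31 in KO TAC. Lama2 went from 25.4% ± 2.81 to 33% ± 2.3 in controls and from 24.5% ± 0.804 to 34.3% ± 0.618 in knockouts. Lama4 went from 22.6% ± 1.53 to 27.7% ± 1.83 and from 23.6% ± 1.74 to 29.8% ± 1.33. Shares of a total rise for the other chains when Lama5 falls. Lama4 itself, which was not called, went from 6.21 ± 0.601 to 6.81 ± 0.474 RPKM in controls and from 6.31 ± 0.312 to 7.01 ± 0.401 in knockouts. By share, Lama5 was the leading alpha chain in all sham libraries, with 47.5% to 54.8%. In the TAC libraries its share of 33.5% to 41.6% met that of Lama2, at 31.4% to 36.4%. The divisor was 16338 bases for Lama2 and 11388 for Lama5. In counts not divided by length, the log2 ratio of Lama5 to Lama2 was 0.49 ± 0.27 (SD) in Ctrl sham and 0.54 ± 0.11 in KO sham. After TAC it was −0.32 ± 0.22 in controls and −0.51 ± 0.06 in knockouts, with Lama2 the higher.

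The linker genes rose modestly. Nid1 and Nid2 encode the nidogens, which bridge laminin and collagen IV. Nid1 was measured at 117, 125, 139 and 146 CPM in Ctrl sham, 122, 135, 138 and 121 in KO sham, 182, 156, 153 and 175 in Ctrl TAC, and 191, 167, 158 and 167 in KO TAC. The CPM of Nid2 were 19.4, 22.9, 23.1 and 21.7 in Ctrl sham, 20.2, 22.6, 19.9 and 17.7 in KO sham, 27.9, 26.5, 25.4 and 28.8 in Ctrl TAC, and 29.1, 29.3, 29.5 and 28.3 in KO TAC. The log2 fold change of Nid1 was 0.34 ± 0.08 (SE, edgeR adjusted p = 0.00495) in controls and 0.40 ± 0.08 (SE, edgeR adjusted p = 0.000617) in knockouts, and that of Nid2 was 0.32 ± 0.07 (SE, edgeR adjusted p = 0.00327) and 0.53 ± 0.07 (SE, edgeR adjusted p = 1.22e-05). Nid2 shares 437 exon bases (8.4%) with Rtraf on the opposite strand, whose mean stayed between 54.1 and 57.8 CPM in the 4 groups. In CPM, Hspg2 stood at 410, 460, 469 and 423 in Ctrl sham, 427, 439, 430 and 405 in KO sham, 563, 616, 476 and 529 in Ctrl TAC, and 524, 456, 596 and 530 in KO TAC. Hspg2, encoding the heparan sulfate proteoglycan perlecan, had a log2 fold change of 0.31 ± 0.08 (SE, edgeR adjusted p = 0.0094) in controls and 0.31 ± 0.08 (SE, edgeR adjusted p = 0.00544) in knockouts. All 3 lay above the sham range in every TAC library of their genotype. Agrn, encoding agrin, spanned 69.8 to 96.5 CPM over all libraries, with a log2 fold change of 0.11 ± 0.07 (SE, edgeR adjusted p = 0.282) in controls and 0.17 ± 0.07 (SE, edgeR adjusted p = 0.0722) in knockouts.

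Dystroglycan, the cell surface receptor that links laminin to dystrophin, was among the most abundant members and was not called. Dag1 had levels of 329, 313, 329 and 324 CPM in Ctrl sham, 316, 312, 325 and 327 in KO sham, 317, 371, 326 and 320 in Ctrl TAC, and 296, 269, 321 and 318 in KO TAC. Its groups overlapped, with a log2 fold change of 0.04 ± 0.06 (SE, edgeR adjusted p = 0.675) in controls and −0.09 ± 0.06 (SE, edgeR adjusted p = 0.275) in knockouts.

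Among integrin alpha chains, Itga5, Itga9, Itga11 and Itgav rose in both genotypes, as did the leukocyte chain Itgam, and the laminin-binding chain of muscle was not called. Levels of Itga5 were 40.3, 39.9, 40.7 and 43.1 CPM in Ctrl sham, 43.9, 41.6, 45.3 and 39.9 in KO sham, 67.9, 64.8, 61.7 and 70.5 in Ctrl TAC, and 63.7, 66.9, 75.6 and 70.2 in KO TAC. Itga5, the fibronectin receptor chain, had a log2 fold change of 0.69 ± 0.06 (SE, edgeR adjusted p = 3.26e-07) in controls and 0.70 ± 0.06 (SE, edgeR adjusted p = 9.17e-08) in knockouts. Itga7 was measured at 157, 143, 146 and 133 CPM in Ctrl sham, 138, 129, 128 and 144 in KO sham, 129, 162, 138 and 148 in Ctrl TAC, and 125, 110, 122 and 135 in KO TAC. Itga7, the chain of the muscle laminin receptor, had a log2 fold change of −0.00 ± 0.07 (SE, edgeR adjusted p = 0.989) in controls and −0.13 ± 0.07 (SE, edgeR adjusted p = 0.186) in knockouts, with overlapping groups. For Itga5 all 8 TAC libraries, at 61.7 to 75.6 CPM, lay above all 8 sham libraries, at 39.9 to 45.3 CPM.

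The CPM of Itga9 were 40.5, 47.6, 53.3 and 49.4 in Ctrl sham, 44.7, 50.5, 49.3 and 45.2 in KO sham, 110, 94.7, 85.8 and 107 in Ctrl TAC, and 106, 98.6, 117 and 109 in KO TAC. Itga9, a chain that binds tenascin-C and osteopontin among others, had the largest log2 fold change of the integrin alpha chains in controls, 1.06 ± 0.09 (SE, edgeR adjusted p = 2.54e-07), and one of 1.18 ± 0.09 (SE, edgeR adjusted p = 2.41e-08) in knockouts. In CPM, Itga11 stood at 1.71, 2.83, 1.83 and 1.99 in Ctrl sham, 1.56, 2.22, 2.82 and 1.79 in KO sham, 5.86, 3.32, 3.09 and 3.54 in Ctrl TAC, and 5.72, 6.16, 4.91 and 4.16 in KO TAC. Itga11, a collagen receptor of fibroblasts, started low and had a log2 fold change of 0.91 ± 0.23 (SE, edgeR adjusted p = 0.00779) in controls and 1.32 ± 0.22 (SE, edgeR adjusted p = 0.000201) in knockouts, the largest of the alpha chains there. The control group was uneven, as Ctrl TAC 1 lay at 5.86 CPM and the other 3 between 3.09 and 3.54. Itgav had levels of 20.1, 21.4, 21.3 and 20.7 CPM in Ctrl sham, 20.4, 20.1, 19.4 and 19.3 in KO sham, 23.7, 23.7, 22.8 and 25.8 in Ctrl TAC, and 26.9, 24.9, 29.1 and 26.6 in KO TAC. Itgav encodes alphaV, partner of beta1, beta3, beta5, beta6 and beta8, and its log2 fold change was 0.20 ± 0.06 (SE, edgeR adjusted p = 0.0151) in controls and 0.44 ± 0.06 (SE, edgeR adjusted p = 7e-06) in knockouts. The control call for Itgav was lost without Ctrl sham 1 (adjusted p = 0.0544, edgeR) and without Ctrl TAC 4 (0.0659), and with a term for animal numbers starting with 25 (0.0922).

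Levels of Itga6 were 47.6, 64.3, 55.1 and 49 CPM in Ctrl sham, 54.6, 61.9, 54.6 and 50.3 in KO sham, 70.2, 54.2, 66.3 and 65.3 in Ctrl TAC, and 83.2, 78.1, 87.1 and 71.8 in KO TAC. Itga6, a laminin-binding chain found on endothelium and other cells, was called in knockouts, with a log2 fold change of 0.53 ± 0.10 (SE, edgeR adjusted p = 0.00038), and not in controls, where it was 0.25 ± 0.10 (SE, edgeR adjusted p = 0.0868). Its Ctrl TAC range overlapped Ctrl sham, whereas all KO TAC libraries lay above all others. Itga1, Itga2, Itga10, Itga3, Itga8 and Itga4, the last also found on leukocytes, were not called in either genotype. Itga1, the most abundant collagen-binding chain, spanned 52.5 to 69.2 CPM, with a log2 fold change of −0.05 ± 0.08 (SE, edgeR adjusted p = 0.696) in controls and −0.01 ± 0.08 (SE, edgeR adjusted p = 0.919) in knockouts. Itga4 lay above the KO sham libraries in all 4 KO TAC ones without being called (adjusted p = 0.0531, edgeR). Itga10 shares 1739 exon bases (33.5%) with Gm42957 on the same strand, and its level is uncertain for that reason.

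Itgb1, the beta chain of most of these receptors, was the most abundant member per length, at 88.3 ± 3.3 RPKM (SD, n = 4) in Ctrl sham and 107 ± 2.09 in KO TAC. Itgb1 was measured at 366, 340, 369 and 366 CPM in Ctrl sham, 345, 356, 354 and 355 in KO sham, 419, 376, 396 and 426 in Ctrl TAC, and 430, 433, 448 and 430 in KO TAC. The change was small, with a log2 fold change of 0.17 ± 0.05 (SE, edgeR adjusted p = 0.0142) in controls and 0.30 ± 0.05 (SE, edgeR adjusted p = 5.18e-05) in knockouts, and the TAC libraries lay above the sham range in both genotypes. In controls the call was lost without Ctrl sham 2 (adjusted p = 0.0547, edgeR) and without Ctrl TAC 4 (0.0575).

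Beside beta1, alphaV pairs with the chains encoded by Itgb3, Itgb5, Itgb6 and Itgb8, of which all but Itgb6 rose in both genotypes. The CPM of Itgb5 were 75.2, 86.8, 72.6 and 85.7 in Ctrl sham, 82.7, 79, 79.5 and 85.2 in KO sham, 117, 106, 95.2 and 116 in Ctrl TAC, and 126, 123, 121 and 108 in KO TAC. In CPM, Itgb3 stood at 1.45, 1.47, 1.32 and 1.41 in Ctrl sham, 1.04, 1.42, 1.33 and 1.37 in KO sham, 1.85, 2.57, 1.99 and 1.81 in Ctrl TAC, and 1.89, 2.31, 3.22 and 2.59 in KO TAC. Itgb8 had levels of 1.06, 1.28, 1.32 and 0.9 CPM in Ctrl sham, 1.25, 1.78, 1.62 and 1.62 in KO sham, 1.92, 1.9, 1.99 and 2.03 in Ctrl TAC, and 2.33, 2.66, 3.96 and 2.47 in KO TAC. Itgb5 was by far the most abundant of them and Itgb8, a chain that takes part in activating latent TGF-beta, among the least abundant members. The log2 fold change was 0.44 ± 0.07 (SE, edgeR adjusted p = 0.000277) in controls and 0.55 ± 0.07 (SE, edgeR adjusted p = 1.21e-05) in knockouts for Itgb5, the vitronectin receptor chain. For Itgb3, the chain best known from platelets, it was 0.54 ± 0.17 (SE, edgeR adjusted p = 0.0296) in controls and 0.96 ± 0.17 (SE, edgeR adjusted p = 0.00024) in knockouts, and the control call was lost without Ctrl sham 1, 3 or 4 or Ctrl TAC 2, with adjusted p-values up to 0.101 (edgeR), and with a term for animal numbers starting with 25 (0.227). For Itgb8 it was 0.78 ± 0.18 (SE, edgeR adjusted p = 0.00445) in controls and 0.87 ± 0.17 (SE, edgeR adjusted p = 0.000758) in knockouts. Itgb6, an epithelial chain, was at 5.23 to 12.6 CPM with a log2 fold change of −0.32 ± 0.23 (SE, edgeR adjusted p = 0.366) in controls and −0.51 ± 0.23 (SE, edgeR adjusted p = 0.096) in knockouts. Itgb4, the laminin-binding beta chain of hemidesmosomes, was low: Levels of Itgb4 were 1.25, 1.8, 1.79 and 1.64 CPM in Ctrl sham, 1.25, 1.47, 1.65 and 1.48 in KO sham, 1.87, 2.23, 1.67 and 2.21 in Ctrl TAC, and 2.18, 2.24, 2.55 and 2.51 in KO TAC. Its log2 fold change was 0.30 ± 0.15 (SE, edgeR adjusted p = 0.167) in controls and 0.70 ± 0.15 (SE, edgeR adjusted p = 0.00121) in knockouts, where all TAC libraries lay above the sham ones.

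The leukocyte chains were low throughout. Itgam was measured at 4.37, 4.67, 5.95 and 3.85 CPM in Ctrl sham, 4.35, 5.65, 5.04 and 3.97 in KO sham, 6.95, 6.13, 6.29 and 6.38 in Ctrl TAC, and 7.47, 7.78, 5.91 and 8.58 in KO TAC. The CPM of Itgb2 were 4.06, 4.47, 5.64 and 6.32 in Ctrl sham, 4.16, 4.86, 5.29 and 4.25 in KO sham, 6.48, 6.98, 5.94 and 5.89 in Ctrl TAC, and 6.61, 6.71, 6.03 and 6.4 in KO TAC. Itgam and Itgb2 together form Mac-1, the integrin of macrophages and neutrophils. The log2 fold change of Itgam was 0.45 ± 0.14 (SE, edgeR adjusted p = 0.0272) in controls and 0.65 ± 0.14 (SE, edgeR adjusted p = 0.00121) in knockouts, and that of Itgb2 was 0.31 ± 0.12 (SE, edgeR adjusted p = 0.0872) and 0.47 ± 0.12 (SE, edgeR adjusted p = 0.00573). The control call for Itgam was lost without Ctrl sham 1, 2 or 4 or Ctrl TAC 1 or 4 (adjusted p-values up to 0.0824, edgeR) and with a term for animal numbers starting with 25 (0.165), and Itgam shares 3450 exon bases (68.7%) with Gm49368 on the same strand, so that its level is uncertain. The 10 macrophage markers summed to 198 to 260 CPM in Ctrl sham, 191 to 249 in KO sham, 277 to 329 in Ctrl TAC and 281 to 393 in KO TAC, with 5 called higher in controls and 9 in knockouts, beside the 10.4% and 17.8% of all genes called higher. The 6 neutrophil markers summed to 0.984 to 1.52 CPM in Ctrl sham, 1.01 to 1.79 in KO sham, 1.25 to 2.23 in Ctrl TAC and 1.43 to 3.18 in KO TAC, with 3 of them tested, 0 called in controls and 1, S100a9, higher in knockouts, while Ly6g was at 0 in every library. None of the 10 macrophage markers was at 0 in any group, and the part of the macrophage shift in the Itgam and Itgb2 values was not tested. Itgal, Itgax and Itgb7, at 0.281 to 2.62 CPM, were not called. The 10 lymphocyte markers were low, with sums of 2.01 to 3.62 CPM in Ctrl sham and 2.14 to 3.11 in Ctrl TAC. In KO sham their sum was 1.87 to 2.6 CPM, and in KO TAC 3.06 to 4.3. Of 7 tested, 0 were called in controls and 3 higher in knockouts, beside the same 10.4% and 17.8% of all genes. Without the library labelled KO TAC 4, 2 were called higher in knockouts.

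**Figure D3:**
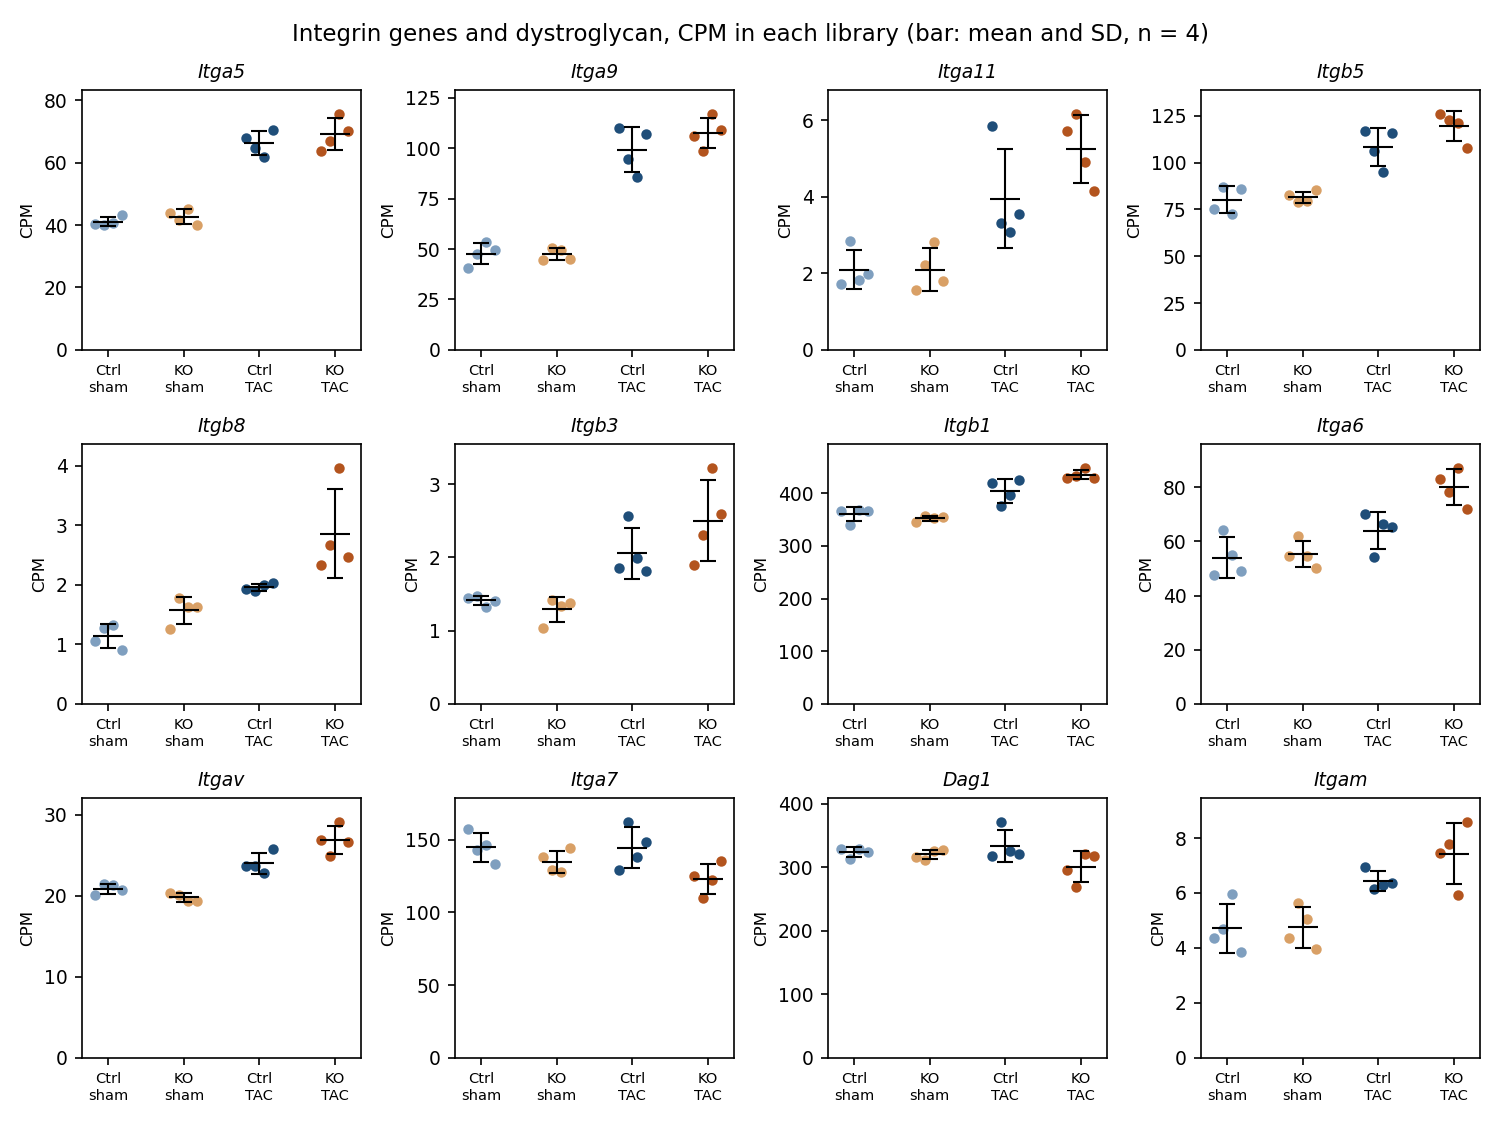
CPM (y axis, from 0) of 11 integrin genes and Dag1 in each of the 16 libraries, by group (x axis); points are libraries, bars the mean and SD of 4. Itga5 and Itga9 show the clearest gap between sham and TAC, Itgb1 rises slightly on a high level, and Itga7 and Dag1 overlap between groups.

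Per length, Itgb1 stood first in both Ctrl sham and KO TAC, while the collagens moved up. These 2 groups differ in both surgery and genotype, and KO TAC includes the library labelled KO TAC 4. In Ctrl sham Itgb1 was followed by Dag1 at 50.9 ± 1.17 RPKM (SD, n = 4) and Lamb2 at 50 ± 1.42, which did not differ beyond their spread. Next came Col4a1 at 35.4 ± 3.73, Col4a2 at 31.9 ± 3.05 and Hspg2 at 30.8 ± 1.98, again within their spread. Itgb5 at 22.5 ± 2.04, Lamc1 at 21.1 ± 1.94 and Nid1 at 19 ± 1.94 followed, and Itga7 at 17.9 ± 1.21 was the most abundant alpha chain. In KO TAC Col4a1 at 75.1 ± 2.36 RPKM and Col4a2 at 68.8 ± 4.19 stood above Dag1 at 47.3 ± 3.77 and Lamb2 at 46.9 ± 2.24. Itga7 at 15.2 ± 1.30 was met there by Itga5 at 14 ± 1.04 and Itga9 at 14 ± 0.981, which in Ctrl sham had been at 8.31 ± 0.290 and 6.20 ± 0.696. In Ctrl TAC, Itga7 at 17.8 ± 1.79 RPKM stayed above Itga5 at 13.4 ± 0.768 and Itga9 at 12.9 ± 1.48. Col4a1 at 72 ± 9.96 and Col4a2 at 65.7 ± 7.54 stood above Dag1 at 52.4 ± 3.97 in Ctrl TAC as well. At the low end, Lamc3, Itga2, Itgb8 and Col4a6 lay between 0.0674 and 0.131 RPKM in Ctrl sham.

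**Figure D4:**
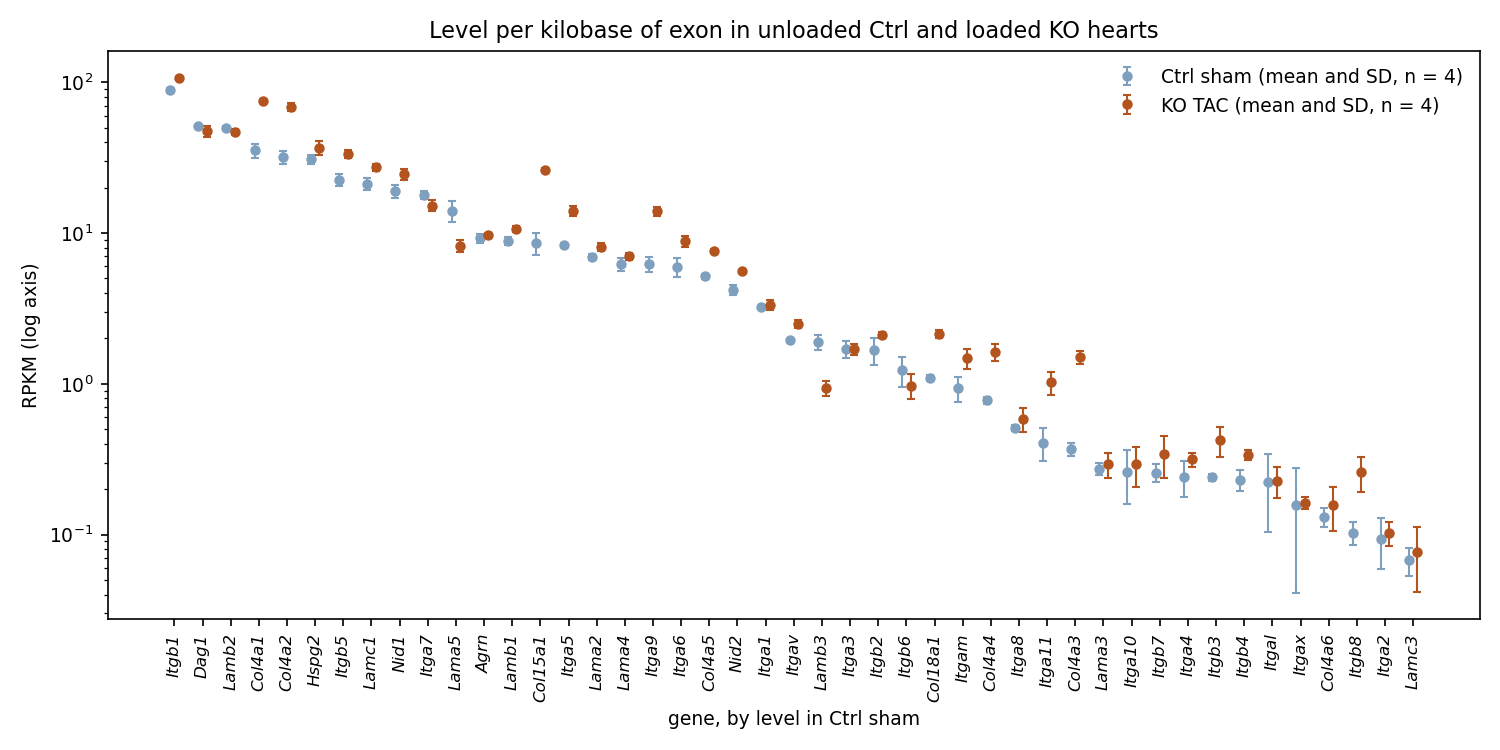
Level per length (y axis, RPKM, log axis) of the 45 members tested, ordered by their mean in Ctrl sham (x axis), in Ctrl sham and KO TAC; points are means and bars SD of 4 libraries. Col4a1 and Col4a2 pass Dag1 and Lamb2 in KO TAC, and Lama5 and Lamb3 lie below their Ctrl sham level.

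Ratios of 2 chains within a library do not depend on how libraries are scaled, and 9 of them were examined. Each was tested with an exact two-sided permutation test over the 70 relabellings of 4 against 4 libraries, whose smallest p is 0.0286; of 36 tests 8 reached it, and 0 had an adjusted p under 0.05, the lowest being 0.129. The log2 ratio of Col4a1 to Col4a2 counts was 0.32 ± 0.03 (SD, n = 4) in Ctrl sham, 0.34 ± 0.05 in KO sham, 0.30 ± 0.04 in Ctrl TAC and 0.30 ± 0.05 in KO TAC. It moved by −0.02 with TAC in controls (exact permutation p = 0.429) and by −0.04 in knockouts (exact permutation p = 0.286), while both genes doubled. The Col4a3 to Col4a4 ratio behaved otherwise: it went from −1.17 ± 0.16 to −0.42 ± 0.14 in controls and from −1.12 ± 0.23 to −0.20 ± 0.05 in knockouts. These differences of 0.76 and 0.92 had no overlap between groups (exact permutation p = 0.0286 each, adjusted 0.129).

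The same smallest exact permutation p, 0.0286, was reached in both genotypes by Lama5 to Lama2, which moved by −0.81 in controls and −1.05 in knockouts, and by Itga5 to Itga7, which moved by 0.70 and 0.83. Lamb1 to Lamb2 moved by 0.37 in controls (exact permutation p = 0.0286) and by 0.29 in knockouts (exact permutation p = 0.0571). Col15a1 to Col18a1 moved by 0.52 in controls (exact permutation p = 0.0857) and by 0.50 in knockouts (exact permutation p = 0.0286). The ratios of Lama4 to Lama2, Itgb3 to Itgb5 and Nid2 to Nid1 overlapped between sham and TAC in both genotypes. In KO TAC vs. Ctrl TAC the smallest p was that of Col4a3 to Col4a4, with a difference of 0.22 (exact permutation p = 0.0571, adjusted 0.187).

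**Figure D5:**
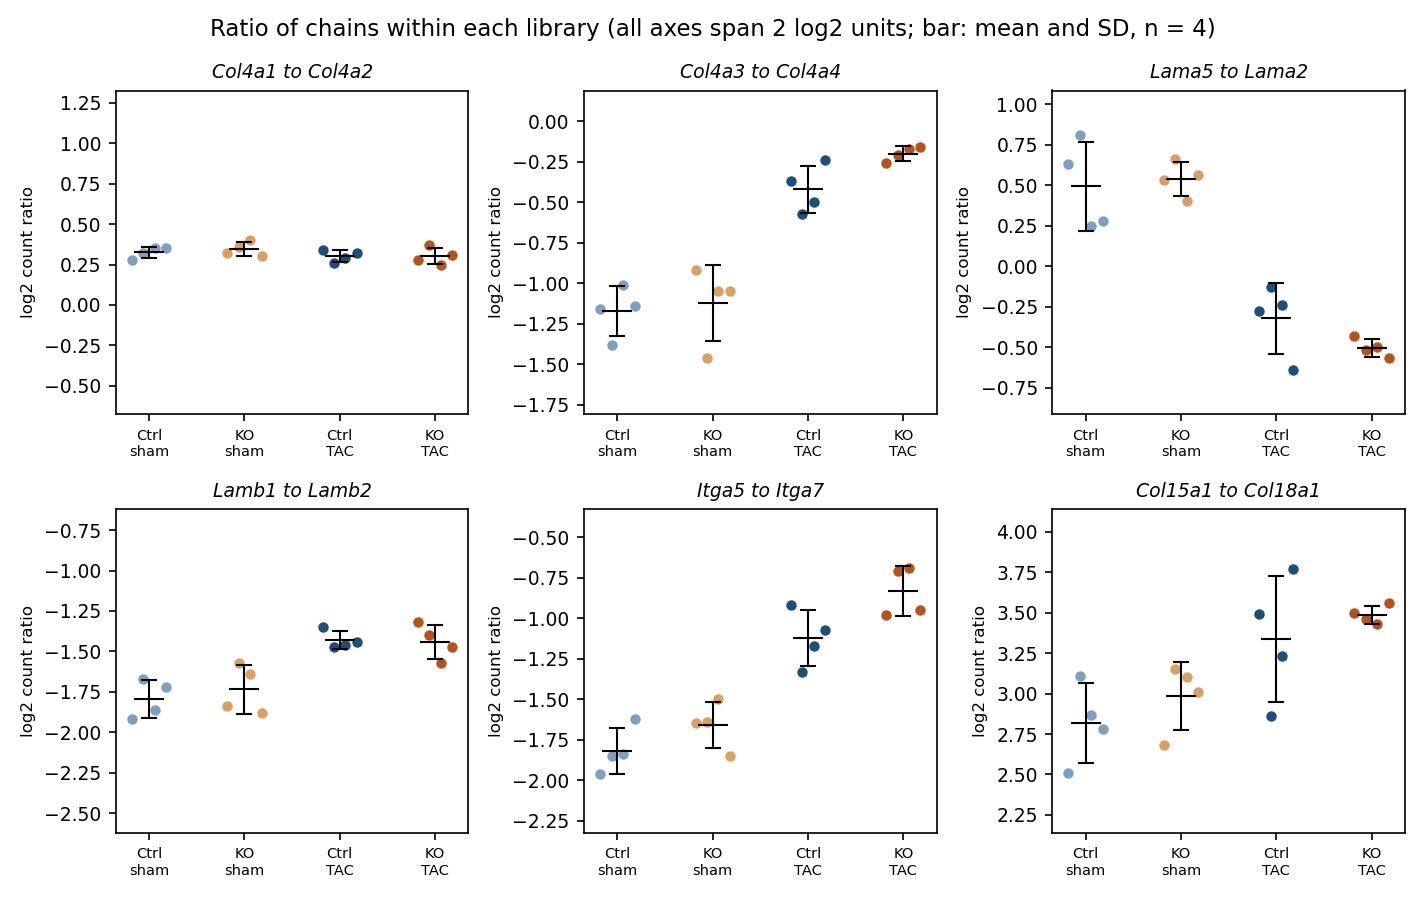
Log2 ratio of the counts of 2 genes within each library (y axis, every panel spanning 2 log2 units) by group (x axis); points are libraries, bars the mean and SD of 4. Col4a1 to Col4a2 stays between 0.25 and 0.40 in all 16 libraries, while Col4a3 to Col4a4 lies between −1.46 and −0.92 in the sham and between −0.57 and −0.16 in the TAC libraries.

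Deletion of Cardinal without pressure overload left these genes without a call. In KO sham vs. Ctrl sham 0 of 45 members were called by edgeR, as were 0% of all genes, and DESeq2 called 0 members as well. Gm12295 itself was not called by edgeR, although it was at 3.24 to 3.86 CPM in Ctrl sham and 0.297 to 0.553 in KO sham. The spread of a gene was estimated over all 16 libraries. For Gm12295 these include the library labelled KO TAC 4 at 4.55 CPM (others of its group 0.276 to 0.371) and Ctrl TAC 1 at 8.02. Whether this kept Gm12295 from a call was not tested, so its missed call does not measure how well other genes would be called. For the members too, an absence of a call is not an absence of change. At an unadjusted p under 0.05 stood 1 member (2.22%), against 2.62% of all genes: Itgb8, with a log2 fold change of 0.45 ± 0.18 (SE) and overlapping groups. The log2 fold changes of the members ran from −0.27 to 0.45, and their median was −0.03. In no member did the sham groups separate, where 1.78% of all genes did.

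Under pressure overload, 1 of 45 members (2.22%) was called in KO TAC vs. Ctrl TAC, against 2.68% of all genes, 1.36% higher and 1.32% lower. It was Col4a3, the gene with the largest rise after TAC, with a log2 fold change of 0.54 ± 0.13 (SE, edgeR adjusted p = 0.0338). Its groups overlapped, since Ctrl TAC 4 at 13.3 CPM lay above the library labelled KO TAC 4 at 13.1, while the other KO TAC libraries were at 14.5 to 16.8. The call held without the library labelled KO TAC 4 (log2 fold change 0.60, adjusted p = 0.0321, edgeR) but was lost without Ctrl TAC 2 (0.121), Ctrl TAC 3 (0.0931), KO TAC 1 (0.0882), KO TAC 2 (0.0747) or KO TAC 3 (0.0951). With a term for animal numbers starting with 25 the estimate was 0.44 on the log2 scale (edgeR adjusted p = 0.203); that series holds 3 of the 4 Ctrl TAC libraries, 1 KO TAC library and no sham library, so a comparison within it has no replicates on the knockout side. In Ctrl TAC 2, 3, 1 and 4, Col4a3 was at 8.41, 8.42, 11 and 13.3 CPM beside fibroblast marker sums of 1538, 1815, 1898 and 2090 CPM, and the part of that sum in the Col4a3 difference was not tested.

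At an unadjusted p under 0.05 stood 10 members (22.2%) in KO TAC vs. Ctrl TAC, beside 18.5% of all genes. In 4 members the KO TAC libraries all lay above the Ctrl TAC ones (8.89%, against 10.5% of all genes separated in either direction and 5.55% with KO TAC higher), and none of these was called. They were Itgb8 with a log2 fold change of 0.54 ± 0.17 (SE, edgeR adjusted p = 0.0905), Itga6 with 0.32 ± 0.10 (SE, edgeR adjusted p = 0.0791), Col15a1 with 0.34 ± 0.12 (SE, edgeR adjusted p = 0.127), and Itgb1 with 0.11 ± 0.05 (SE, edgeR adjusted p = 0.218). Col4a4, the neighbor of Col4a3, had 0.34 ± 0.10 (SE, edgeR adjusted p = 0.0803). Col4a1 had 0.06 ± 0.11 (SE, edgeR adjusted p = 0.81) and Col4a2 had 0.07 ± 0.09 (SE, edgeR adjusted p = 0.757). Col4a4, Col4a1 and Col4a2 all overlapped between genotypes. On the lower side were the muscle laminin receptors, Itga7 with −0.23 ± 0.07 (SE, edgeR adjusted p = 0.0983) and Dag1 with −0.15 ± 0.06 (SE, edgeR adjusted p = 0.182), neither of them called. The summed cardiomyocyte markers were at 53720 to 58771 CPM in Ctrl TAC and 46800 to 49703 in KO TAC. Of these 10 markers 0 were called higher and 2 lower, beside 1.36% and 1.32% of all genes. Their median log2 fold change was −0.15. The part of the lower sum in the Itga7 and Dag1 values was not tested. DESeq2's Wald test called 5 members, all higher in KO TAC, namely Col4a3, Col4a4, Col15a1, Itga6 and Itgb8; it called 3.75% of 16120 genes higher.

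Whether TAC acted differently in the 2 genotypes was tested as an interaction, and 0 of 45 members were called by edgeR or by DESeq2, against 0.0109% of all genes (edgeR). For 7 members (15.6%) the unadjusted p was under 0.05, against 11.1% of all genes. The interaction estimate of Col4a3 was 0.52 ± 0.19 (SE, edgeR adjusted p = 0.331) and that of Itgav 0.24 ± 0.08 (SE, edgeR adjusted p = 0.267), and estimates ran from −0.22 to 0.52 over the members, with a median of 0.09. Among the 24 members called in both genotypes, 22 had the larger absolute log2 fold change in knockouts, while the interaction test called none of them. More of all genes were also called after TAC in knockouts, 34.3% against 20.0% in controls. The share of all genes with the larger change in knockouts was not counted, so the 22 are not read as a trait of these members.

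Without the library labelled KO TAC 4, the same 27 members were called in KO TAC vs. KO sham, where 16.4% of all genes were then called higher and 14.7% lower, and the median of the members was 0.41. Their log2 fold changes shifted by −0.33, for Lamc3, to 0.12, for Col4a6, and 1 of 45 changed sign, Itga10, from 0.09 to −0.02. In KO TAC vs. Ctrl TAC, Col4a4 joined Col4a3 among the called members, with a log2 fold change of 0.41 ± 0.10 (SE, edgeR adjusted p = 0.0478). Col4a4 was also called without Ctrl TAC 4, together with Col15a1 and Col4a3. When Ctrl sham 2 was left out Itga6 was called, and when Ctrl TAC 1 was left out Itga7, lower in KO TAC. In the fit that left out KO TAC 4 none of the following was called: Itgb8 had a log2 fold change of 0.61 ± 0.18 (SE, edgeR adjusted p = 0.0925), Itga6 one of 0.37 ± 0.10 (0.0671), Itga7 one of −0.28 ± 0.08 (0.0688), and Dag1 one of −0.17 ± 0.06 (0.153). The interaction test again called 0 members. The chain ratios in KO TAC moved by −0.07, for Itgb3 to Itgb5, to 0.04, for Itga5 to Itga7; with 3 against 4 libraries the smallest exact permutation p is 0.0571, which Col4a3 to Col4a4, Lama5 to Lama2, Itga5 to Itga7 and Col15a1 to Col18a1 reached in KO TAC vs. KO sham.

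Other genes that work with these proteins are described against the same shares of all genes, 10.4% higher and 9.60% lower in controls and 17.8% and 16.5% in knockouts. Of 14 enzymes and chaperones that modify, fold or cross-link collagen IV and related chains, 7 were higher and 0 lower after TAC in either genotype, with a median log2 fold change of 0.22 in controls and 0.28 in knockouts. Loxl2, an oxidase that cross-links collagen IV, had a log2 fold change of 1.65 ± 0.11 (SE) in controls and 2.20 ± 0.11 in knockouts, and the prolyl 3-hydroxylases P3h2 and P3h3 had 0.71 ± 0.13 and 0.55 ± 0.07 in controls and 1.17 ± 0.13 and 0.91 ± 0.07 in knockouts. P4ha3, a prolyl 4-hydroxylase subunit, was called higher in knockouts, but at 0 to 0.552 CPM over all libraries no fold is given. P3h3 and P4hb were called higher in KO TAC vs. Ctrl TAC; when the library labelled KO TAC 4 was left out, the call held for P3h3 (adjusted p = 0.0346, edgeR) and was lost for P4hb (0.05 after rounding).

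Of 20 other basement membrane proteins tested, 8 rose and 1 fell in controls and 14 rose and 1 fell in knockouts. Frem1, a protein of the Fraser complex, had a log2 fold change of 2.16 ± 0.28 (SE) in controls and 3.57 ± 0.29 in knockouts, Sparc, a collagen-binding matricellular protein, 1.05 ± 0.09 and 1.39 ± 0.09, and Fras1 1.37 ± 0.35 and 1.39 ± 0.35. Npnt, the nephronectin ligand of alpha8 beta1, had 1.54 ± 0.41 in knockouts and was not called in controls, where it was 0.76 ± 0.40. The interaction test called 0 of these 20 genes. Over all libraries Frem1 was at 0.155 to 4.11 CPM, Fras1 at 0.0974 to 0.844 and Npnt at 0.142 to 0.986, so these folds rest on low levels. Frem1 and Sparc were also the 2 of this list called in KO TAC vs. Ctrl TAC, with 0.96 ± 0.24 (adjusted p = 0.0426, edgeR) and 0.35 ± 0.09 (adjusted p = 0.0485, edgeR). Without the library labelled KO TAC 4, 12 rose and 1 fell in knockouts, and in KO TAC vs. Ctrl TAC Frem1 kept the call (adjusted p = 0.0461, edgeR) and Sparc lost it (0.05 after rounding).

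Of 25 integrin adaptors and signaling genes tested, 11 rose and 0 fell in controls and 11 rose and 2 fell in knockouts, with medians of 0.17 and 0.18. Zyx, encoding the focal adhesion protein zyxin, had a log2 fold change of 0.55 ± 0.06 (SE) in controls and 0.74 ± 0.06 in knockouts, and Ptk2b and the leukocyte kindlin Fermt3 had 0.77 ± 0.19 and 0.53 ± 0.14 in controls and 0.61 ± 0.19 and 0.60 ± 0.14 in knockouts. Src had 0.52 ± 0.11 in knockouts and 0.00 ± 0.11 in controls, while the interaction test called 0 of the 25 genes. Lims2 was the 1 gene of this list called in KO TAC vs. Ctrl TAC, where it was lower. Without the library labelled KO TAC 4, 10 rose and 2 fell in knockouts, the knockout call of Ptk2b was lost (adjusted p = 0.0743, edgeR), and so was that of Lims2 in KO TAC vs. Ctrl TAC (0.0507).

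Among 13 other matrix receptors, 7 rose and 2 fell in controls and 7 rose and 3 fell in knockouts. The leading ones in knockouts were the heparan sulfate proteoglycan Sdc1, with 0.51 ± 0.11 (SE) in controls and 0.94 ± 0.11 in knockouts, and the hyaluronan receptor Cd44, with 0.81 ± 0.25 and 0.72 ± 0.24. Mcam had 0.28 ± 0.09 in controls and 0.54 ± 0.09 in knockouts, and the collagen receptor kinase Ddr1 had 0.49 ± 0.07 in both. Sdc4 was called higher in KO TAC vs. Ctrl TAC, also without the library labelled KO TAC 4 (adjusted p = 0.0374, edgeR). Without that library 6 rose and 1 fell in knockouts, and the knockout call of Cd44 was lost (adjusted p = 0.0512, edgeR). Of the 5 tested chains of the laminin and integrin families outside the 46, Itgbl1, an integrin beta-like protein, had 1.61 ± 0.15 in controls and 2.28 ± 0.15 in knockouts and was called in KO TAC vs. Ctrl TAC, with 0.62 ± 0.14 (adjusted p = 0.0338, edgeR; 0.032 without the library labelled KO TAC 4).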

How the data were processed

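The authors deposited 1 table of read counts per Ensembl gene, with 1 column for each of the 16 hearts and no normalization. Libraries were poly(A)-selected with the TruSeq kit and sequenced paired-end. The submitters' processing notes name cutadapt 2.3, FastQC, HISAT2 2.1.0, edgeR 3.26.1 and GRCm38; the counting program, its annotation and its use of strand are not given in the sources used here, so reads in exon bases that a gene shares with another cannot be assigned with certainty.

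From these counts, all else was computed anew. Gene symbols, exon lengths and positions came from GENCODE M21, which matched 55227 of 55487 IDs (99.5%). Genes were filtered with filterByExpr, scaled by TMM and fitted with edgeR 4.0.16 (robust quasi-likelihood, R 4.3.3) with 1 mean for each of the 4 groups, and p-values were Benjamini-Hochberg adjusted over 18275 genes in each of 5 contrasts. The SE is the absolute log2 fold change divided by the square root of F. CPM used TMM-scaled totals. DESeq2 1.42.0 was an alternative, as were size factors by RLE, other filters, a threshold of 0.01, terms for animal numbers, fits to 8 libraries and fits leaving out each library. Log2 ratios within a library had 0.5 added to each count and were tested with scipy 1.17.1. The fit was tested on simulated data.

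The 46 members, their classes and all other gene lists were chosen with earlier results of these data known. Values in each library were given for members called in TAC vs. sham in either genotype or in KO TAC vs. Ctrl TAC and for the main chains whatever their result; of every other list at most 4 called genes with the largest change in KO TAC vs. KO sham were named, and P4hb, Lims2 and Sdc4 were added after their values were seen. The list of enzymes that modify dystroglycan and some genes of the other lists are not reported here. Replicates are separate animals by their labels, and 4 against 4 libraries and the depth per library limit the precision of low genes.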

Additional observations from a re-analysis of the deposited data

Results flagged for a closer look

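In 12 of 184 tests of a gene within a group of 4 libraries, 1 library stood apart from the other 3 by Dixon's criterion; chance alone gives about 1 in 20. Gm12295 accounted for 2 of them, at 8.02 CPM in Ctrl TAC 1 (others 2.69 to 3.37) and at 4.55 CPM in the library labelled KO TAC 4 (others 0.276 to 0.371). In Ctrl TAC, Itga11 was at 5.86 CPM in replicate 1 (others 3.09 to 3.54), Agrn at 85.8 in replicate 1 (95.4 to 96.5), Dag1 at 371 in replicate 2 (317 to 326), Itga2 at 0.669 in replicate 3 (0.487 to 0.493) and Lama2 at 142 in replicate 4 (128 to 130). In the sham groups, Itgb1 was at 340 CPM in Ctrl sham 2 (366 to 369), Itgal at 2.62 in Ctrl sham 3 (0.984 to 1.19) and Lamc3 at 0.138 in KO sham 3 (0.385 to 0.427). In KO TAC, Lamb1 was at 113 CPM in replicate 1 (102 to 103) and Itgb1 at 448 in replicate 3 (430 to 433).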

How the results depend on the processing

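The count of members called in KO TAC vs. Ctrl TAC, 1 as reported, was the 1 count that moved by over 1.5 times. It was 5 with DESeq2, and 0 at an adjusted p under 0.01, with a term for animal numbers starting with 25, in the fit to the 8 libraries compared, and without Ctrl TAC 2 and KO TAC 4 together. Leaving out 1 library in turn gave 0 to 3: 0 without Ctrl TAC 2, Ctrl TAC 3, KO TAC 1, KO TAC 2 or KO TAC 3, 2 without Ctrl sham 2, Ctrl TAC 1 or KO TAC 4, and 3 without Ctrl TAC 4. The cause was not tested. Over all alternatives the count was 20 to 25 in Ctrl TAC vs. Ctrl sham and 26 to 30 in KO TAC vs. KO sham. No direction turned: of 1300 refits of single called members, 1266 kept the call and 34 lost it, for Lama2, Itgav, Itgam, Itgb1 and Itgb3 in controls, Lamb1 in knockouts and Col4a3 in KO TAC vs. Ctrl TAC. The ratios moved by at most 0.02 with 2 added to each count. No paired analysis was possible because the labels give no replicate numbers that groups share. Depth limits Lama1 and the genes under 1 CPM, where an absence of a call is not an absence of change.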
